A study of Mus musculus with 20 samples.

Results

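The extracellular matrix genes of the embryonic mouse heart are described here as 57 genes for collagens, elastic fibres, laminins, proteoglycans, adhesive glycoproteins and the enzymes that cut or cross-link them. They were taken by name from a table of 48795 genes, and only genes outside the duplicated region were kept, so each is present in 2 copies in all genotypes. All 57 were among the 15304 genes expressed strongly enough to be tested, and for description they were divided into 9 groups by the role of the protein. RNA was sequenced from 20 hearts at E13.5, shortly before septation is completed. Of these, 10 were WT, 5 were Dp1Tyb and 5 were Dp1TybDyrk1a+/+/-. Dp1Tyb mice model Down syndrome and carry a duplication of mouse chromosome 16 from Lipi to Zbtb21 on 1 chromosome. Dp1TybDyrk1a+/+/- embryos carry the same duplication together with the null allele Dyrk1atm1Mla, which leaves 2 functional copies of Dyrk1a while the rest of the region stays at 3 copies. The allele and the duplication are germline, so all cells of the heart carry them. The comparisons ask how the duplication alters matrix gene expression and how far an effect depends on the additional copy of Dyrk1a.

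The matrix of the early heart begins as cardiac jelly, a hyaluronan-rich gel between myocardium and endocardium that swells into the endocardial cushions. Cushion mesenchyme and fibroblasts later lay down fibrillar collagen, elastic fibres and versican in the valves, septa and outflow vessels, while myocytes and vessels sit on basement membranes of laminin, nidogen, perlecan and type IV collagen. Collagen chains are hydroxylated, glycosylated and folded in the endoplasmic reticulum, trimmed outside the cell and then cross-linked by lysyl oxidases.

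Values are log2 of the normalized read count, and a log2 fold change is a difference between group means on that scale. Read totals are not known, and errors given are those between hearts. A heart was placed by the root mean square of its distance from its group's median over all genes tested. This lay between 0.048 and 0.102 log2 units in 18 hearts, but at 0.142 in WT replicate 6 and 0.221 in Dp1TybDyrk1a+/+/- replicate 2, so counts below are also given without these 2 hearts. Of the 57 matrix genes, 30 had their lowest WT value in WT replicate 6 and 21 had it in WT replicate 10, or 52.6% and 36.8%, where 22.8% and 13.6% of all genes did. In Dp1TybDyrk1a+/+/- replicate 2, 38 matrix genes had the highest value of the group, or 66.7%, where 37.7% of all genes did. Dyrk1a itself had mean log2 values of 11.37 in WT, 11.69 in Dp1Tyb and 11.76 in Dp1TybDyrk1a+/+/- hearts, so its RNA level does not check the null allele.

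Matrix genes spanned a 462-fold range of expression in WT hearts when the normalized count was divided by transcript length. Sparc, which encodes a collagen-binding glycoprotein, was highest at 10283 normalized counts per kb. Col3a1 followed at 8080, and Col1a1 at 5651, both chains of fibrillar collagens. With Col1a2 and Eln, the gene for elastin, the top 5 genes held 41.5% of the summed per-kb level of all 57. The lowest were Tnxb, which encodes tenascin-X, at 37.3 normalized counts per kb, Mfap5, a microfibril component, at 25.2, and Col8a1, a short-chain collagen gene, at 22.3. Has2, described below, was the fourth lowest, at 72.6.

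**Figure D1:**
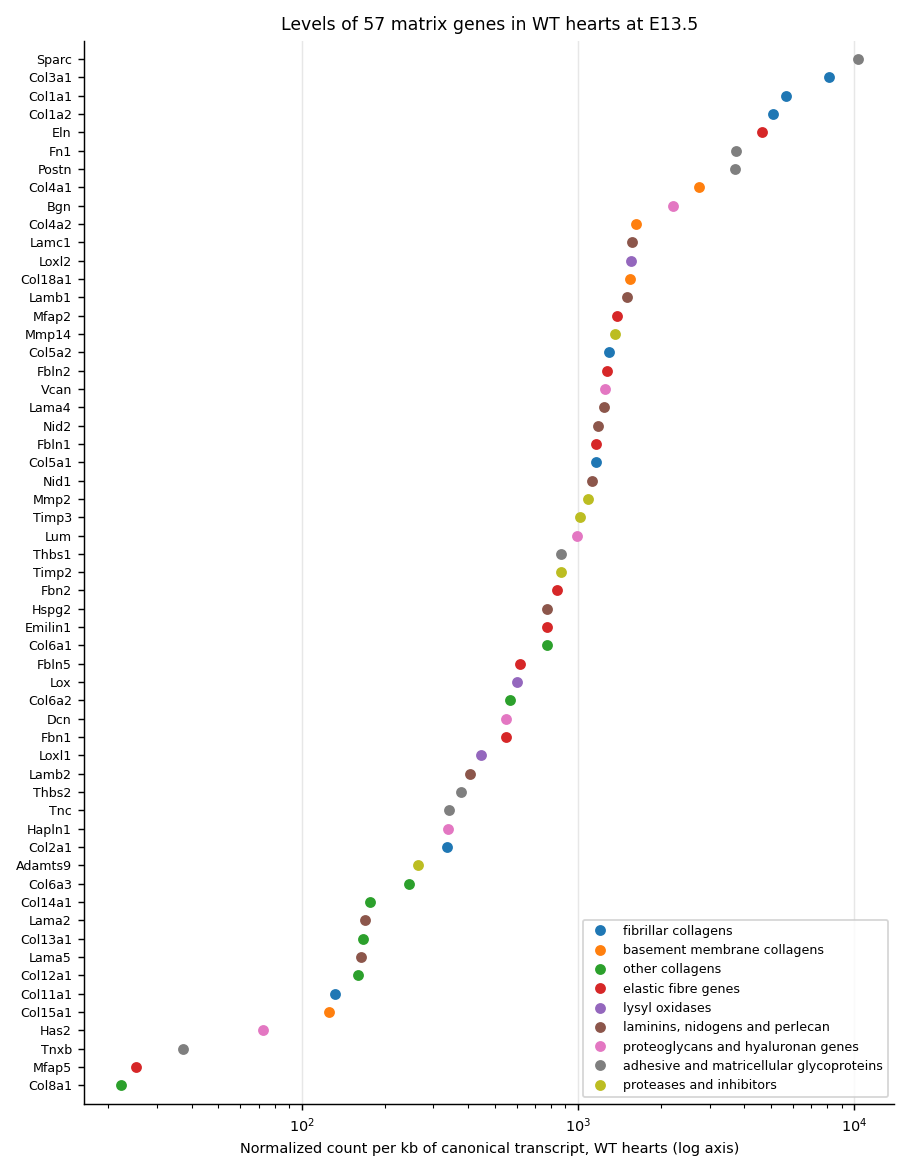
Normalized read count per kb of the canonical transcript in WT hearts (log axis) for each of the 57 matrix genes, ordered by level and colored by role. Sparc stood highest at 10283 and Col8a1 lowest at 22.3, with collagen genes at both ends of the order.

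Matrix genes varied between WT hearts. The median SD over the 10 WT hearts was 0.110 log2 units for matrix genes, compared with 0.0573 for the 11219 genes expressed at or above the lowest matrix gene, and 51 of 57 matrix genes were above that median. The most variable were Hspg2, which encodes perlecan, with an SD of 0.267, Col1a1 with 0.243 and Col1a2 with 0.234. Hspg2 ranged from 12.93 to 13.91 across WT hearts with a median of 13.43. The least variable were Nid1, which encodes nidogen-1, with an SD of 0.043, and Has2 with 0.044.

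In Dp1Tyb hearts 1 of the 57 matrix genes, Has2, passed the threshold against WT, an adjusted P-value under 0.05 by limma with Benjamini-Hochberg adjustment over all genes tested. Over all genes 3.08% passed it, 1.81% as increased and 1.27% as decreased. Matrix genes above WT numbered 39 of 57 (48.5% of all genes), and their median log2 fold change was 0.06, compared with 0.00 for all genes. At an unadjusted P under 0.05, 14 were higher and 2 lower (7.77% of all genes were higher and 7.8% lower at this level, 15.6% together). The log2 fold changes ran from -0.18 for Eln to 0.22 for Tnxb.

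In Dp1TybDyrk1a+/+/- hearts no matrix gene passed the adjusted threshold against WT by limma (0.712% of all genes did, 0.627% as increased and 0.0849% as decreased), and 10 had an unadjusted P under 0.05, 4 higher and 6 lower (5.02% and 4.61% of all genes, 9.64% together). Here 20 of 57 lay above WT (47.4% of all genes) and the median log2 fold change was -0.02. Direct comparison of Dp1Tyb with Dp1TybDyrk1a+/+/- hearts also gave no matrix gene past the threshold (1.16% of all genes did, 0.425% as higher and 0.738% as lower in Dp1Tyb), with a lowest adjusted P of 0.0695 for Loxl1. At an unadjusted P under 0.05 the count was 13, all higher in Dp1Tyb (8.54% of all genes were higher and 10% lower, 18.5% together), and 44 of 57 were higher in Dp1Tyb (52% of all genes). Both comparisons with WT use the same 10 WT hearts. Side by side, 23 genes lay above WT in Dp1Tyb and below it in Dp1TybDyrk1a+/+/-, 16 lay above in both, 14 below in both and 4 the opposite way.

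The 95% intervals show, for each gene alone, how large a difference could be missed. Their median distance from the estimate was 0.133 in each comparison with WT and 0.153 in the direct comparison. Over all 57 genes they reached no further than -0.40 and 0.42 in Dp1Tyb versus WT. In Dp1TybDyrk1a+/+/- versus WT they reached -0.45 and 0.33, and in the direct comparison -0.37 and 0.52. These extremes are not a joint 95% limit over the 57 genes. Without WT replicate 6 and Dp1TybDyrk1a+/+/- replicate 2, a setting chosen after seeing the data, 4 matrix genes were called in Dp1Tyb versus WT, all higher (Has2, Emilin1, Mfap5 and Timp3; 7.7% of all genes). In the same setting 3 were lower in Dp1TybDyrk1a+/+/- than in WT (Col15a1, Tnc and Col6a3; 1.39%), and 6 were higher in Dp1Tyb than in Dp1TybDyrk1a+/+/- (Fbln1, Has2, Tnc, Emilin1, Tnxb and Col6a3; 3.96%).

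**Figure D2:**
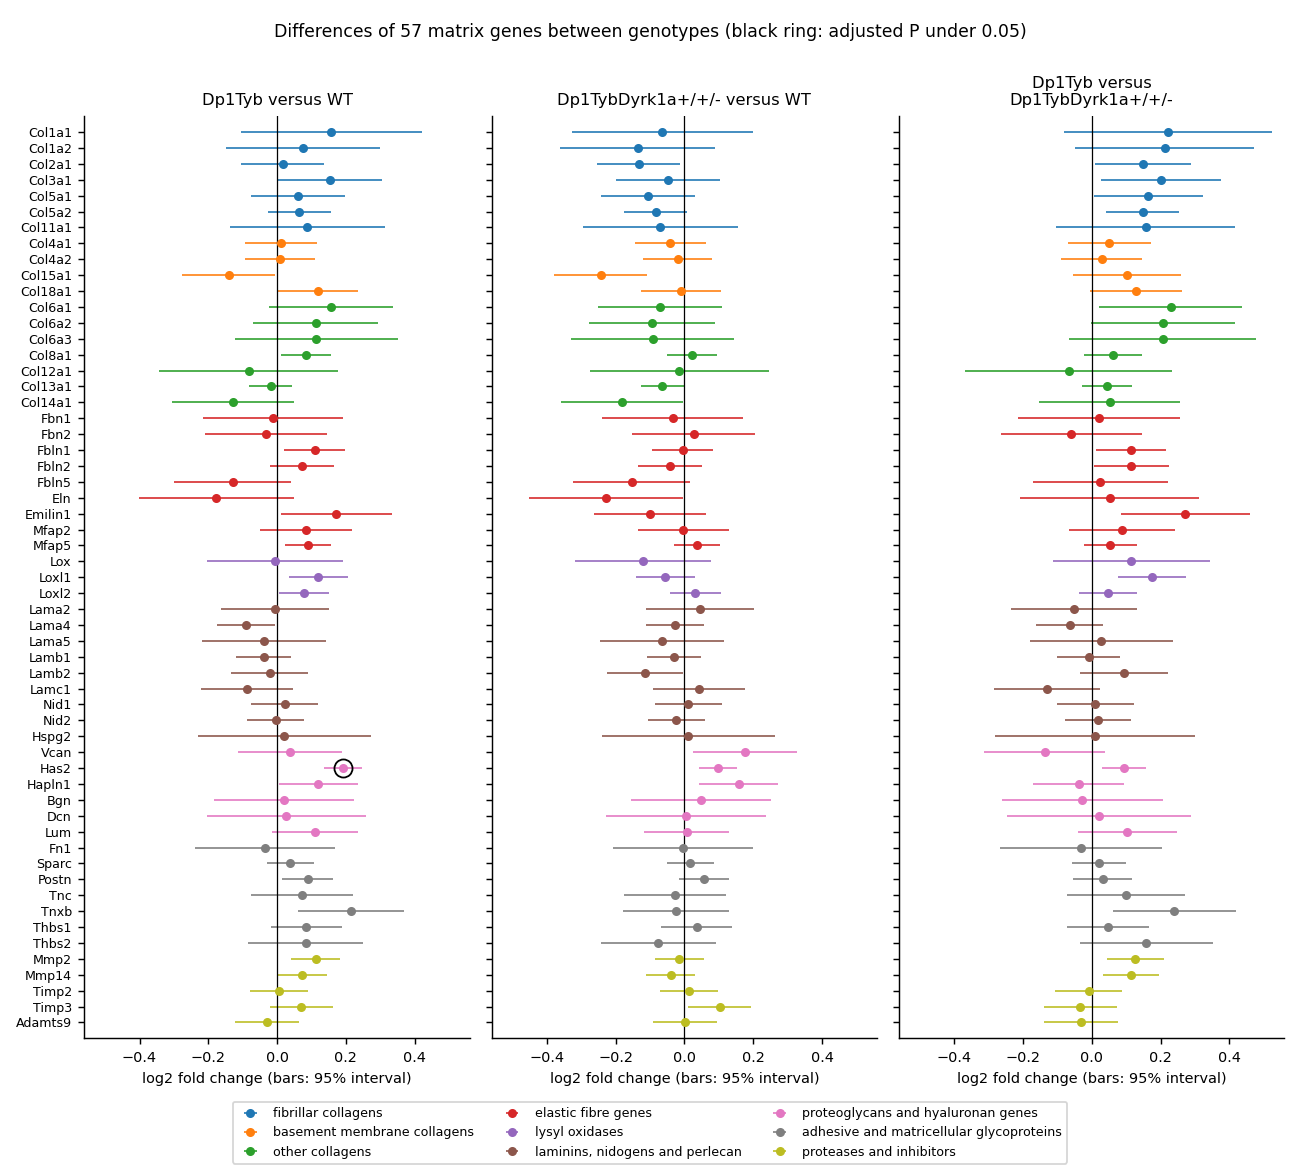
Log2 fold change of each of the 57 matrix genes (points) with its 95% interval (bars) in the 3 comparisons, ordered and colored by role, with a black ring where the adjusted P was under 0.05. Has2 in Dp1Tyb versus WT, at 0.19, carries the one ring, and the fibrillar collagens at the top lie right of 0 in the first panel and left of 0 in the second.

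Among the proteoglycan and hyaluronan genes, Has2 was increased in Dp1Tyb hearts. It encodes the hyaluronan synthase that makes the hyaluronan of cardiac jelly and cushions, and lies on chromosome 15 (GRCm39, 56528342 to 56557999). WT hearts ran from 8.42 to 8.54 with a median of 8.52 log2 normalized counts. The 5 Dp1Tyb hearts had 8.68, 8.71, 8.64, 8.72 and 8.71, and the 5 Dp1TybDyrk1a+/+/- hearts 8.57, 8.68, 8.63, 8.57 and 8.53. Thus all Dp1Tyb hearts were above all WT hearts, whereas Dp1TybDyrk1a+/+/- hearts overlapped both groups. Against WT the log2 fold change was 0.19 (SE 0.0268, adjusted P = 0.000115, limma), or 14.2% higher, with a 95% interval of 0.14 to 0.25. An exact two-sided permutation test of the hearts gave P = 0.000666, unadjusted, the smallest that 10 against 5 hearts allow. That value follows from the lack of overlap, so it adds no further support. Hearts did not overlap, with Dp1Tyb higher, for Has2 and Emilin1 among matrix genes (1.51% of all genes), and for none with Dp1Tyb lower (1.12%). No matrix gene separated Dp1TybDyrk1a+/+/- from WT hearts, where 0.562% of all genes did as higher and 0.0784% as lower.

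In Dp1TybDyrk1a+/+/- hearts the Has2 log2 fold change against WT was 0.10 (SE 0.0268, adjusted P = 0.138, limma). Dp1Tyb was above Dp1TybDyrk1a+/+/- by 0.09 (SE 0.0309, adjusted P = 0.122, limma), with an interval of 0.03 to 0.16. A difference between the effects of the 2 genotypes on Has2 was therefore not established at the adjusted threshold. Within lanes 3, 6 and 7 the Dp1Tyb difference from WT was 0.23, 0.16 and 0.18, with 1 Dp1Tyb heart in lane 7. Has2os, transcribed from the opposite strand of the same locus, had mean log2 values of 2.11 in each genotype. The strand setting of the counting is not given in the sources used here, so reads from any sequence shared by the 2 transcripts cannot be told apart. Such sharing was not checked, and Has2os was read far less.

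**Figure D3:**
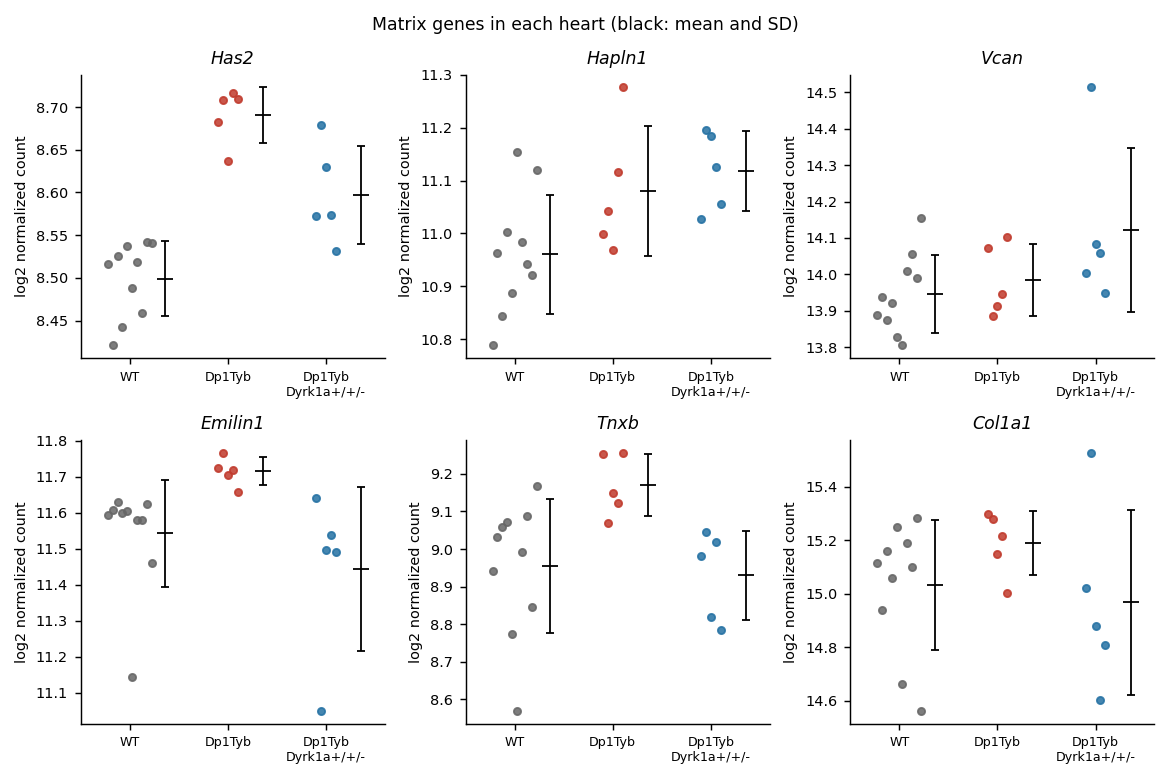
Log2 normalized count in each heart (points) by genotype for 6 matrix genes, with the mean and SD in black (10 WT, 5 Dp1Tyb and 5 Dp1TybDyrk1a+/+/- hearts). Has2 in Dp1Tyb hearts lay above all WT hearts, and 1 Dp1TybDyrk1a+/+/- heart stood far from the other 4 for Vcan (14.51) and for Emilin1 (11.05).

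Hapln1 encodes the link protein that fastens versican to hyaluronan, and Vcan encodes versican. Hapln1 ran from 10.79 to 11.15 in WT hearts (median 10.95), and the Dp1TybDyrk1a+/+/- hearts had 11.03, 11.20, 11.18, 11.13 and 11.06. The groups overlapped, and the log2 fold change was 0.16 (SE 0.0551, adjusted P = 0.328, limma). In Dp1Tyb hearts it was 0.12 (SE 0.0551, adjusted P = 0.295). Vcan had its highest value of all hearts, 14.51, in Dp1TybDyrk1a+/+/- replicate 2, and the other 4 Dp1TybDyrk1a+/+/- hearts lay at 13.95 to 14.08 within the WT range of 13.80 to 14.15. Its log2 fold change of 0.18 in Dp1TybDyrk1a+/+/- (SE 0.0728, adjusted P = 0.438, limma) became 0.08 when that heart was left out. All 6 genes of the group, with the small proteoglycans Bgn, Dcn and Lum, had a mean above WT in Dp1Tyb, with a median log2 fold change of 0.07. In Dp1TybDyrk1a+/+/- all 6 were above WT with that replicate, and 3 of 6 without it and WT replicate 6.

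The fibrillar collagens form the cables that carry tension in valves and vessel walls. In Dp1Tyb hearts all 7 genes (Col1a1, Col1a2, Col2a1, Col3a1, Col5a1, Col5a2 and Col11a1) had a mean above WT, with log2 fold changes of 0.02 to 0.16 and a median of 0.08, and in Dp1TybDyrk1a+/+/- hearts all 7 had a mean below WT, with log2 fold changes of -0.14 to -0.05 and a median of -0.08. No gene passed the threshold in either comparison. The direct difference between the 2 genotypes had a median of 0.16. At an unadjusted P under 0.05, 4 of 7 were higher in Dp1Tyb (8.54% of all genes), but none passed after adjustment. The 7 genes were read in the same hearts, so their directions are not independent observations.

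Averaged over the 7 genes and set to a WT mean of 0, single hearts spanned -0.27 to 0.17 in WT, -0.05 to 0.16 in Dp1Tyb and -0.28 to 0.12 in Dp1TybDyrk1a+/+/-. The 2 lowest WT hearts were replicates 10 and 6, both at -0.27, and the Dp1TybDyrk1a+/+/- hearts had 0.02, 0.12, -0.12, -0.28 and -0.19. In sample order, WT replicates 6 to 10 are listed with the Dp1TybDyrk1a+/+/- hearts. WT replicates 1 to 5, listed with the Dp1Tyb hearts, ran from -0.037 to 0.135. Both genotypes were set against the mean of all 10 WT hearts, and the part of this order in the opposite signs was not tested. The genotypes overlapped. The difference between Dp1Tyb and Dp1TybDyrk1a+/+/- was 0.03 in lane 3, 0.28 in lane 6 and 0.25 in lane 7. Lanes 3 and 6 held 1 Dp1TybDyrk1a+/+/- heart each and lane 7 held 1 Dp1Tyb heart. In lane 3 Dp1Tyb exceeded WT by 0.01, in lane 6 by 0.08 and in lane 7, with 1 Dp1Tyb heart, by 0.27. Without WT replicate 6 and Dp1TybDyrk1a+/+/- replicate 2 the median in Dp1Tyb versus WT was 0.04, with 6 of 7 genes above WT, and in Dp1TybDyrk1a+/+/- it was -0.17, with none of 7 above.

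Col1a1, which encodes a chain of type I collagen, illustrates this spread. WT hearts ran from 14.56 to 15.29 with a median of 15.11, Dp1Tyb hearts had 15.298, 15.279, 15.148, 15.218 and 15.002, and Dp1TybDyrk1a+/+/- hearts had 15.02, 15.53, 14.88, 14.60 and 14.81. The highest and nearly the lowest of all hearts were thus both Dp1TybDyrk1a+/+/-. Dp1Tyb versus Dp1TybDyrk1a+/+/- differed by 0.22 for Col1a1 (SE 0.146, adjusted P = 0.418, limma) and by 0.21 for Col1a2 (SE 0.124, adjusted P = 0.366), the partner chain. Col5a2, which nucleates collagen fibrils as type V collagen, was the one fibrillar gene whose Dp1Tyb hearts (13.26 to 13.38) all lay above the Dp1TybDyrk1a+/+/- hearts (13.08 to 13.24). Such separation, also seen for Emilin1 and Tnxb, occurred in 2.1% of all genes. None lay wholly lower, as 3.55% of all genes did, and the adjusted P for Col5a2 was 0.132 by limma.

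**Figure D4:**
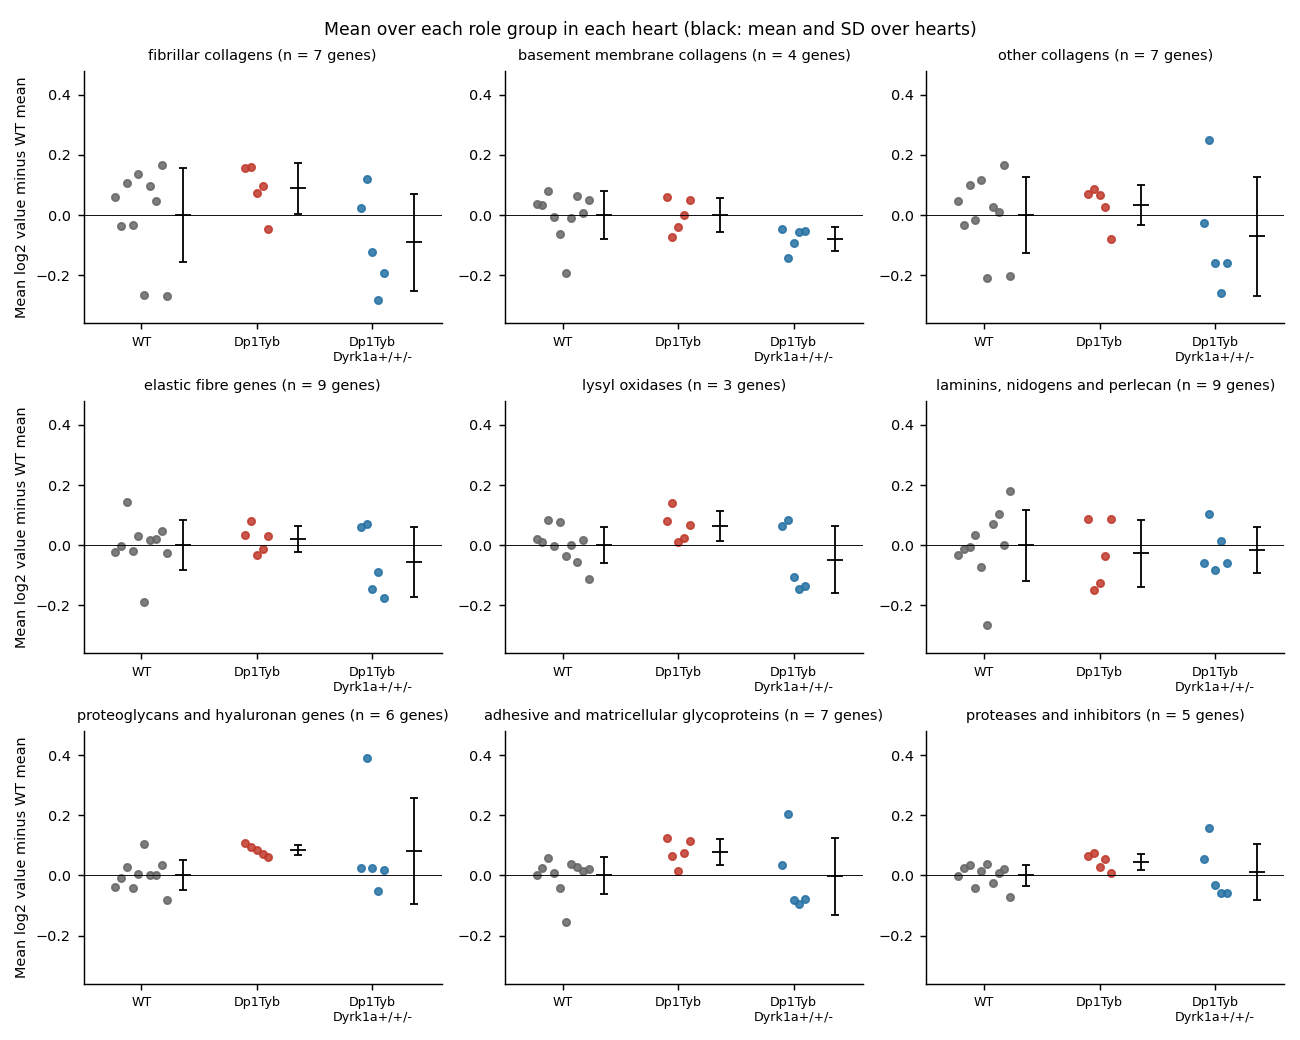
Mean log2 value over each of the 9 role groups in each heart (points), minus the WT mean, by genotype, with mean and SD over hearts in black. Fibrillar collagens ran from -0.28 to 0.17 across all hearts, and 1 Dp1TybDyrk1a+/+/- heart reached 0.39 for proteoglycans and hyaluronan genes.

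Marker lists of cell types moved with these collagens in some of the same hearts. WT replicate 6, low for collagen, was near the WT mean for all 4 lists given here, at -0.02 for fibroblast and cushion mesenchyme, -0.05 for cardiomyocyte, -0.01 for smooth muscle and 0.03 for lung and gut epithelium markers. WT replicate 10, equally low for collagen, was at -0.11 for the fibroblast list and 0.25 for the cardiomyocyte list. In bulk tissue, fewer cells of a type and less RNA per cell cannot be told apart. The 7 fibroblast and cushion mesenchyme markers averaged 0.05 above WT in Dp1Tyb and -0.02 in Dp1TybDyrk1a+/+/-. They summed to 6524 to 7786 normalized counts in WT, 7197 to 7838 in Dp1Tyb and 6654 to 7868 in Dp1TybDyrk1a+/+/- hearts. The 10 cardiomyocyte markers averaged -0.07 in Dp1Tyb and 0.05 in Dp1TybDyrk1a+/+/-, with sums of 368237 to 492833 in WT, 359200 to 416595 in Dp1Tyb and 390366 to 451901 in Dp1TybDyrk1a+/+/-. None of these markers was called in a comparison and none was at 0.

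Smooth muscle and epithelium markers also varied between hearts. For 6 smooth muscle and mural markers (Myh11, Acta2, Tagln, Cnn1, Pdgfrb and Rgs5) the mean was -0.22 in WT replicate 10, 0.27 in Dp1TybDyrk1a+/+/- replicate 2 and -0.24 to -0.34 in Dp1TybDyrk1a+/+/- replicates 3 to 5. The 6 did not move together. In Dp1Tyb versus WT 3 were above and 3 below, from -0.24 for Rgs5 to 0.22 for Myh11. In Dp1TybDyrk1a+/+/- versus WT Myh11 was lowest at -0.35, where the median of the 6 was -0.06. The summed level of these 6 ran from 25086 to 29626 normalized counts in WT, 24233 to 27339 in Dp1Tyb and 24328 to 29141 in Dp1TybDyrk1a+/+/-. For 5 lung and gut epithelium markers (Nkx2-1, Foxa2, Epcam, Cdh1 and Shh), genes of tissues next to the heart, the mean was 0.47 in WT replicate 9 and -0.34 in WT replicate 10. The mean of these 5 was -0.37 in Dp1Tyb replicate 5, 0.29 in Dp1TybDyrk1a+/+/- replicate 2 and -0.28 to -0.39 in Dp1TybDyrk1a+/+/- replicates 3 to 5. Their summed level was low, at 202 to 435 normalized counts in WT, 196 to 324 in Dp1Tyb and 194 to 365 in Dp1TybDyrk1a+/+/-, and none was at 0. The part of these cell types in the collagen values was not tested.

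Promoter sequence was examined for genes with RefSeq entries on GRCm38.p6, which covered 37 of the 57 genes and did not include Has2. The 250 bases before the start are printed for 4 genes: Col1a2 and Col3a1, as chains of the 2 most abundant fibrillar collagens, Emilin1, whose Dp1Tyb hearts separated from both other genotypes, and Pcolce, a collagen processing gene called below. The positions are chr6:4505368-4505617 (plus strand) for Col1a2, chr1:45311288-45311537 (plus) for Col3a1, chr5:30913536-30913785 (plus) for Emilin1 and chr5:137611405-137611654 (minus) for Pcolce. Capitals mark matches on either strand to TATAAA, the TATA box, CCAAT, or GGGCGG, a GC box.
Col1a2: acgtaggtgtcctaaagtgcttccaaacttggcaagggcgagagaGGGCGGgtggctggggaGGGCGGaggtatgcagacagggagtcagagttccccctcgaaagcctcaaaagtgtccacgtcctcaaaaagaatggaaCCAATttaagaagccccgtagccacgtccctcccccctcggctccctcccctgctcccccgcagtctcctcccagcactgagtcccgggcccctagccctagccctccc
Col3a1: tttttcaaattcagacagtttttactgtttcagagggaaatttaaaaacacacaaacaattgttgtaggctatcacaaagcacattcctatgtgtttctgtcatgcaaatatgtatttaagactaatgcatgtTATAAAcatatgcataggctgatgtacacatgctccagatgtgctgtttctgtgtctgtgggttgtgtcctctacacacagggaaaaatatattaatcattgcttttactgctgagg
Emilin1: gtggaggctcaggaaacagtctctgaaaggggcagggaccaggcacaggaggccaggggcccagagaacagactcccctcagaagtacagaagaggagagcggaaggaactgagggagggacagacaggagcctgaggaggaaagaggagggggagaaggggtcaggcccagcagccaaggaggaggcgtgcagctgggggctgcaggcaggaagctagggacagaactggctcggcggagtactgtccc
Pcolce: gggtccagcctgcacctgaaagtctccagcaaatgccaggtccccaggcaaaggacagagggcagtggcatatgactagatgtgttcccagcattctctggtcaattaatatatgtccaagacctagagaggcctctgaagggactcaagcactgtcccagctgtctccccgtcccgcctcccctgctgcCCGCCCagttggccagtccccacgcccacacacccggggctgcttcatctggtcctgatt
Col1a2 held 2 GC boxes, at 205 and 188 bases before the start, and a CCAAT match at 109. In Col3a1 a TATAAA match lay 117 bases before the start. Over the 44 windows of matrix genes 13.6% held TATAAA, 29.5% CCAAT and 56.8% GGGCGG, compared with 12.4%, 33.8% and 32.7% of all 32851 promoter windows of the same length. A match is a description of letters and not a site of binding.

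The basement membrane collagens showed no common direction in Dp1Tyb hearts. Col4a1 and Col4a2, which encode the type IV network, lie head to head on chromosome 8 and differed from WT by 0.01 each in Dp1Tyb and by -0.04 and -0.02 in Dp1TybDyrk1a+/+/-. Their annotated spans overlap by 356 bases. Col15a1, which links basement membrane to interstitial collagen, ran from 9.35 to 9.73 in WT (median 9.47), and Dp1TybDyrk1a+/+/- hearts had 9.24, 9.51, 9.18, 9.05 and 9.27. Thus 4 of 5 Dp1TybDyrk1a+/+/- hearts were below all WT hearts, and the log2 fold change was -0.24 (SE 0.0649, adjusted P = 0.123, limma). Without Dp1TybDyrk1a+/+/- replicate 2, the one within the WT range, it was -0.31 and was called (adjusted P = 0.00872, limma, where 0.908% of all genes were). Leaving out the heart nearest to WT enlarges the difference by construction, so this call adds no support. In Dp1Tyb hearts Col15a1 differed from WT by -0.14 (SE 0.0649, adjusted P = 0.301, limma).

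Col18a1, Col6a1 and Col6a2 have human orthologs on Hsa21, the chromosome present in an additional copy in Down syndrome, but in the mouse they lie on chromosome 10 and are not duplicated in Dp1Tyb. Col18a1 encodes the precursor of endostatin. It was 12.87 to 13.17 in WT (median 13.09), 13.12 to 13.30 in Dp1Tyb and 12.78 to 13.20 in Dp1TybDyrk1a+/+/-, and the groups overlapped. The log2 fold change in Dp1Tyb was 0.12 (SE 0.0558, adjusted P = 0.314, limma).

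Col6a1 and Col6a2 encode chains of the beaded filaments of type VI collagen. Col6a1 was 11.23 to 11.84 in WT (median 11.63), and the Dp1Tyb hearts had 11.86, 11.88, 11.83, 11.82 and 11.56. It differed from WT by 0.16 in Dp1Tyb (SE 0.0867, adjusted P = 0.406, limma) and by -0.07 in Dp1TybDyrk1a+/+/-, with 0.23 between them (SE 0.100, adjusted P = 0.225). Col6a2 gave 0.11 in Dp1Tyb (adjusted P = 0.599, limma) and -0.09 in Dp1TybDyrk1a+/+/-, and Col6a3, a longer chain of the same filaments, 0.11 and -0.09. Within lanes 3, 6 and 7, Col6a1 exceeded WT by 0.05, 0.12 and 0.45 in Dp1Tyb hearts, with 1 Dp1Tyb heart in lane 7. Of the other collagens Col14a1, a fibril-associated collagen gene, had the largest difference in Dp1TybDyrk1a+/+/-, -0.18 (SE 0.0852, adjusted P = 0.504, limma), while Dp1Tyb gave -0.13. Col8a1, a short-chain collagen of vessels and valves, differed by 0.08 in Dp1Tyb and 0.02 in Dp1TybDyrk1a+/+/-. Col12a1, another fibril-associated collagen gene, gave -0.08 and -0.02, and the transmembrane collagen gene Col13a1 gave -0.02 and -0.06.

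The elastic fibre genes divided by gene. Eln encodes elastin, the core of elastic fibers in the outflow vessels. WT hearts ran from 13.88 to 14.74 with a median of 14.13, Dp1Tyb hearts had 14.03, 14.25, 13.89, 13.92 and 13.94, and Dp1TybDyrk1a+/+/- hearts had 14.23, 14.16, 13.72, 13.90 and 13.76. The means were lower in both genotypes but the hearts overlapped, and the log2 fold changes were -0.18 (SE 0.108, adjusted P = 0.470, limma) and -0.23 (SE 0.108, adjusted P = 0.508). WT replicate 3 alone reached 14.74, and without single hearts the values ran from -0.24 to -0.11 and from -0.30 to -0.17. Within lane 3 the Dp1TybDyrk1a+/+/- difference was 0.11, in lane 6 -0.53 and in lane 7 -0.15, so its sign was not the same in all lanes. Lanes 3 and 6 held 1 Dp1TybDyrk1a+/+/- heart each. Fbln5, whose product fibulin-5 guides elastin onto microfibrils, also had means below WT in both genotypes, by log2 fold changes of -0.13 and -0.15 (adjusted P = 0.497 and 0.564, limma). Fbn1 and Fbn2, the fibrillin genes of the microfibril scaffold, differed from WT by -0.01 and -0.03 in Dp1Tyb and by -0.03 and 0.03 in Dp1TybDyrk1a+/+/-. Fbln1 and Fbln2, fibulins of cushions and valves, were 0.11 and 0.07 above WT in Dp1Tyb and at -0.00 and -0.04 in Dp1TybDyrk1a+/+/-. The microfibril genes Mfap2 and Mfap5 were 0.08 and 0.09 above WT in Dp1Tyb, with an adjusted P of 0.148 for Mfap5 (limma). Mfap5, with a mean log2 value of 6.78 in WT, overlaps the annotated span of the more strongly read Rimklb, at 8.50, on the opposite strand. Without a stated strand setting, reads from any sequence their transcripts share cannot be told apart, and such sharing was not checked.

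Emilin1, which encodes a glycoprotein at the surface of elastic fibers, was higher in all 5 Dp1Tyb hearts (11.72, 11.77, 11.71, 11.72 and 11.66) than in all WT hearts (11.15 to 11.63, median 11.60). The Dp1TybDyrk1a+/+/- hearts had 11.64, 11.05, 11.50, 11.54 and 11.49. WT replicate 6 (11.15) and Dp1TybDyrk1a+/+/- replicate 2 (11.05) lay far below their groups. With all hearts the log2 fold change of 0.17 in Dp1Tyb did not pass (SE 0.0780, adjusted P = 0.287, limma). An exact two-sided permutation test of the hearts gave P = 0.000666, unadjusted, for a gene chosen here because its hearts did not overlap. Without the 2 hearts the difference was 0.13 and was called (adjusted P = 0.00713). Dp1Tyb exceeded Dp1TybDyrk1a+/+/- by 0.27 (SE 0.0901, adjusted P = 0.122, limma), or by 0.17 without the 2 hearts (adjusted P = 0.00864).

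Lysyl oxidases cross-link collagen and elastin. Loxl1 had the lowest adjusted P of the direct comparison, with Dp1Tyb hearts at 10.56 to 10.73 and Dp1TybDyrk1a+/+/- hearts at 10.69, 10.38, 10.43, 10.49 and 10.40. The difference was 0.18 (SE 0.0476, adjusted P = 0.0695, limma). Without Dp1TybDyrk1a+/+/- replicate 1, the one heart within the Dp1Tyb range, Loxl1 and Mmp2 were called (1.97% of all genes). That heart had the highest value of its group for both genes, so leaving it out enlarges both differences by construction. The 2 calls add no support. Lox and Loxl2 differed by 0.11 and 0.05 in the same comparison. Loxl2, at 13.01 in WT, overlaps R3hcc1, at 9.15, on the opposite strand.

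Laminins, nidogens and perlecan differed little between genotypes. Of 9 genes 2 were above WT in Dp1Tyb and 4 in Dp1TybDyrk1a+/+/-, and the group mean was -0.03 and -0.02 relative to WT, compared with an SD of 0.12 over WT hearts. The means ran from -0.27 in WT replicate 6 to 0.18 in WT replicate 10. Lama4, a laminin chain of vessels and myocytes, was lower in Dp1Tyb by 0.09 at an unadjusted P under 0.05 (log2 fold change -0.09, SE 0.0404, adjusted P = 0.275, limma). Hspg2 differed from WT by 0.02 and 0.01, well within its spread. Lamc1, the gamma chain shared by most laminins, differed by -0.09 and 0.04, and Lamb2, the beta chain of vessel and synaptic laminins, by -0.02 and -0.11 (adjusted P = 0.500 in Dp1TybDyrk1a+/+/-, limma). The nidogen genes Nid1 and Nid2, which bridge laminin and type IV collagen, were within 0.02 of WT in both genotypes. Lama2, Lama5 and Lamb1 ran from -0.07 to 0.05. Lama5, Lamb1 and Nid2 overlap Adrm1, Dld and Rtraf on the opposite strand, so part of their reads may belong to these genes.

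Among the adhesive and matricellular glycoproteins, 6 of 7 were above WT in Dp1Tyb hearts and 3 of 7 in Dp1TybDyrk1a+/+/- hearts. The difference was largest for Tnxb, whose product tenascin-X organizes collagen fibrils. WT hearts ran from 8.57 to 9.17 (median 9.01), Dp1Tyb hearts had 9.25, 9.07, 9.15, 9.12 and 9.26, and Dp1TybDyrk1a+/+/- hearts had 8.98, 9.04, 8.82, 9.02 and 8.79. Dp1Tyb overlapped WT but lay above all Dp1TybDyrk1a+/+/- hearts. The log2 fold changes were 0.22 versus WT (SE 0.0744, adjusted P = 0.137, limma) and 0.24 versus Dp1TybDyrk1a+/+/- (SE 0.0859, adjusted P = 0.147). Fn1, the gene for fibronectin, differed from WT by -0.04 and 0.00, and Sparc, the most expressed, by 0.04 and 0.02. The thrombospondin genes Thbs1 and Thbs2 were each 0.08 above WT in Dp1Tyb and at 0.04 and -0.08 in Dp1TybDyrk1a+/+/-, and Tnc, the gene for tenascin-C, was at 0.07 and -0.03. Postn, a marker of cushion mesenchyme and valves, was 0.09 above WT in Dp1Tyb (SE 0.0355, adjusted P = 0.214, limma).

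Of the proteases, Mmp2, which degrades type IV collagen and gelatin, came nearest to the threshold after Has2 in Dp1Tyb hearts. They had 11.87, 11.88, 11.83, 11.84 and 11.72, compared with 11.57 to 11.80 in WT (median 11.73), so 4 of 5 were above all WT hearts. The log2 fold change was 0.11 (SE 0.0342, adjusted P = 0.0858, limma), and -0.02 in Dp1TybDyrk1a+/+/-. Mmp14, which activates pro-MMP2, was 0.07 above WT in Dp1Tyb and -0.04 in Dp1TybDyrk1a+/+/-, whereas the inhibitor Timp3 was 0.07 above in Dp1Tyb and 0.10 in Dp1TybDyrk1a+/+/-. Timp2, another inhibitor, differed from WT by 0.00 and 0.01, and Adamts9, a versican-cleaving protease gene in 2 copies, by -0.03 and 0.00.

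Matrix protease genes inside the duplication are no members of the group but show what an additional copy gave on this scale. Adamts1, which cleaves versican, had a log2 fold change of 0.31 in Dp1Tyb (adjusted P = 4.36e-05, limma) and 0.22 in Dp1TybDyrk1a+/+/- (adjusted P = 0.00538). Adamts5, which cleaves versican and aggrecan, had 0.40 (adjusted P = 3.41e-06, limma) and 0.37 (adjusted P = 1.16e-05). Both genes were higher in all duplication hearts than in all WT hearts, and the largest difference of a matrix gene from WT in Dp1Tyb, 0.22 for Tnxb, was below both Dp1Tyb values.

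Genes that make and process collagen were taken as a separate list. All 18 genes of this list were above WT in Dp1Tyb hearts (48.5% of all genes), with a median log2 fold change of 0.06. They were read in the same hearts, so their directions are not independent observations. Of the 18, 3 were called, all increased (3.08% of all genes were called). Colgalt1, which adds galactose to hydroxylysine, was 11.09 to 11.15 in WT (median 11.12) and 11.25, 11.23, 11.21, 11.21 and 11.21 in Dp1Tyb hearts, with no overlap (1.51% of all genes lay wholly higher). The log2 fold change was 0.10 (SE 0.0189, adjusted P = 0.00290, limma), and it was called in 25 of 25 alternative settings. Pcolce, which enhances the trimming of procollagen, rose by 0.13 (SE 0.0306, adjusted P = 0.0225), and P3h1, a prolyl 3-hydroxylase, by 0.09 (SE 0.0236, adjusted P = 0.0370). They were called in 21 and 14 of 25 settings. Leaving out 1 Dp1Tyb heart at a time left 1 or 2 called genes (1.74% to 2.23% of all genes).

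In Dp1TybDyrk1a+/+/- hearts 7 of these 18 genes were above WT (47.4% of all genes) and none was called by limma (0.712% of all genes were). Of the 18, 3 had an unadjusted P under 0.05 (9.64% of all genes). Direct comparison gave 5 called genes, all higher in Dp1Tyb (1.16% of all genes): Colgalt1 by 0.10 (adjusted P = 0.0304, limma), Pcolce by 0.16 (adjusted P = 0.0360), P3h1 by 0.16 (adjusted P = 0.00913), the chaperone Fkbp10 by 0.14 (adjusted P = 0.0304) and the lysyl hydroxylase Plod1 by 0.14 (adjusted P = 0.0460). Without WT replicate 6 and Dp1TybDyrk1a+/+/- replicate 2 the count was 7 (3.96% of all genes were called), and leaving out any 1 of the Dp1Tyb hearts gave 1 or 2 (0.196% to 0.549%). With lane as a covariate it was 1 (0.189%), and in a fit of only these 10 hearts it was 0 (0.0196%). The mean over the list was 0.05 to 0.09 in Dp1Tyb hearts, -0.05 to 0.04 in WT and -0.05 to 0.04 in Dp1TybDyrk1a+/+/-, relative to the WT mean, so all Dp1Tyb hearts were above all others. Group means were 0.07 in Dp1Tyb and -0.02 in Dp1TybDyrk1a+/+/-. The fibroblast and cushion mesenchyme markers had 0.05 and -0.02, with Dp1Tyb hearts at 0.02 to 0.11 overlapping WT hearts at -0.11 to 0.07, and the part of these cells in the values was not tested. Within lanes 3, 6 and 7 Dp1Tyb exceeded Dp1TybDyrk1a+/+/- by 0.05, 0.10 and 0.10. Each of these rests on 1 heart of a genotype, Dp1TybDyrk1a+/+/- in lanes 3 and 6 and Dp1Tyb in lane 7. Serpinh1, the collagen chaperone HSP47, differed by 0.04 from WT and by 0.06 from Dp1TybDyrk1a+/+/- in Dp1Tyb hearts and was not called.

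**Figure D5:**
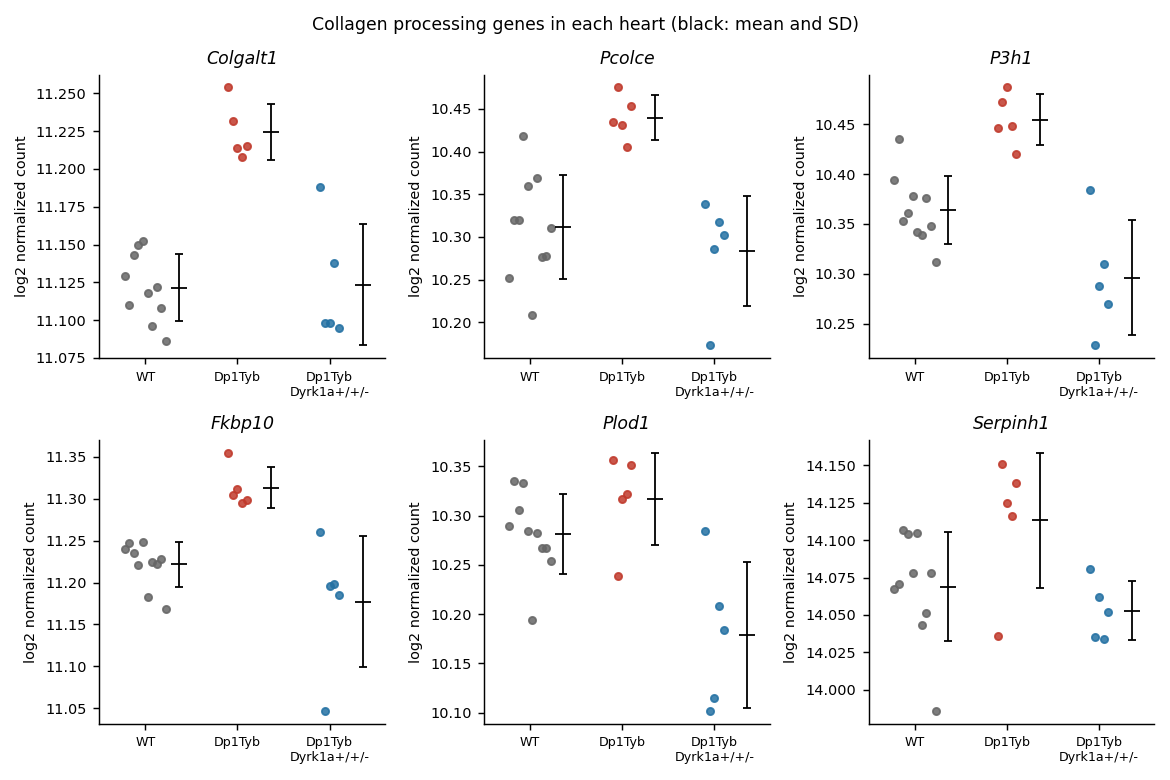
Log2 normalized count in each heart (points) by genotype for 6 genes of collagen synthesis and processing, with mean and SD in black, each panel on its own axis. Colgalt1 and Fkbp10 separated Dp1Tyb hearts from both other genotypes, at 11.21 to 11.25 and 11.29 to 11.36, whereas Serpinh1 overlapped. Of all genes, 1.51% lay wholly above WT and 2.1% wholly above Dp1TybDyrk1a+/+/- in Dp1Tyb hearts, and the share above both was not counted.

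Of 22 integrins and other matrix receptors, 2 were increased in Dp1Tyb hearts (1.81% of all genes were): Itgav by 0.15 (SE 0.0345, adjusted P = 0.0193, limma) and Itgb8 by 0.11 (SE 0.0251, adjusted P = 0.0168). Their products pair as an integrin that releases active TGF-beta from its latent complex. In Dp1TybDyrk1a+/+/- hearts they were 0.09 (adjusted P = 0.403, limma) and 0.10 (adjusted P = 0.0758) above WT. None of the 22 was called by limma there or between the 2 duplication genotypes. At an unadjusted P under 0.05 there were 4 and 7 (9.64% and 18.5% of all genes). Neither Itgav nor Itgb8 was called without Dp1Tyb replicate 1 or without Dp1Tyb replicate 5. Of 36 further matrix genes 2 were increased in Dp1Tyb hearts (1.81% of all genes were). Papss2, which makes the sulfate donor for proteoglycans, rose by 0.19 in Dp1Tyb (SE 0.0477, adjusted P = 0.0307, limma) and Col23a1, a transmembrane collagen gene, by 0.12 (SE 0.0224, adjusted P = 0.00321). Col23a1 was called in 25 of 25 alternative settings and Papss2 in 18 of 25, where its adjusted P reached 0.115. Col23a1 was also 0.11 higher in Dp1Tyb than in Dp1TybDyrk1a+/+/- (adjusted P = 0.0416, limma), the one call among the 36 there (0.425% of all genes were called as higher). It held in 7 of 20 alternative settings, with an adjusted P of up to 0.172. None of the 36 was called by limma, and 7 had an unadjusted P under 0.05 (9.64% of all genes), in Dp1TybDyrk1a+/+/- versus WT.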

How the data were processed

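Bulk RNAseq of 20 E13.5 mouse hearts (10 WT, 5 Dp1Tyb and 5 Dp1TybDyrk1a+/+/-) used mRNA libraries made with the KAPA HyperPrep kit. The authors deposited log2-transformed normalized counts from -2.31 to 18.97 for 48795 genes, of which 19473 were at 0 in every heart. Per the labels, the submitters' processing notes name GRCm38, Trimmomatic 0.36, STAR 2.5.2a, RSEM 1.2.31 and DESeq2, with no roles stated. The transformation is unnamed, so fold changes hold on this scale only. The study's own test models counts, which the deposited log2 values are not, so limma 3.58.1 in R 4.3.3 was used (lmFit and eBayes, trend on), fitting the 3 genotype means together over all 20 hearts. A gene entered at an average of 10 normalized counts or more, and was called when its P-value, adjusted by Benjamini-Hochberg, fell below 0.05. Nothing in the labels says that hearts come from separate litters, so P-values measure the spread between these hearts. The labels do not tie WT hearts to mutant litters, so all 10 WT hearts served both comparisons. The paper kept Dp1TybDyrk1a+/+/- mice as a separate strain with its own WT littermates. Genotype and strain therefore cannot be told apart in the direct comparison. In accession order WT replicates 1 to 5 stand with the Dp1Tyb hearts. WT replicates 6 to 10, which include the low hearts 6 and 10, stand with the Dp1TybDyrk1a+/+/- hearts. Names, coordinates and canonical transcript lengths came from GENCODE M39 on GRCm39. Levels per kb are 2 to the power of the WT mean, divided by transcript length. Read totals were not analysed here, so depth is unknown. Fits were tested on simulated data. Single genes were also compared by exact two-sided permutation of hearts (scipy 1.17.1).

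The members and gene lists were chosen with earlier results of these data known. Genes named with values were those past the threshold, the 5 with the largest difference in each comparison, the 3 highest, lowest and most variable in WT, candidates with human orthologs on Hsa21, Dyrk1a, and Adamts1 and Adamts5. Of the pathway lists, up to 5 called genes per direction were named. Others, such as Loxl1, Mmp2 and Col5a2, were chosen after their values were seen. Lane came from the library names, with 4, 4 and 2 WT hearts, 2, 2 and 1 Dp1Tyb hearts and 1, 1 and 3 Dp1TybDyrk1a+/+/- hearts in lanes 3, 6 and 7. Alternatives were other filters, normalizations, limma settings, heart weights, lane as a covariate, fits of the groups compared and leaving out each heart of those groups.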

Additional observations from a re-analysis of the deposited data

Results flagged for a closer look

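Single hearts stood apart from their group in 12 of 84 group tests (28 genes or group means followed in 3 genotypes), by a gap to the nearest heart above Dixon's 95% critical value. For 1 test chosen in advance, chance gives about 1 in 20. The 84 tests share the same 20 hearts, and some genes were chosen for large differences or large WT spread. The count of 12 therefore cannot be set against that rate. Dp1TybDyrk1a+/+/- replicate 2 was the highest heart of its group for Vcan (14.51, next 14.08) and for the mean over proteoglycans and hyaluronan genes (0.39, next 0.03), and the lowest for Emilin1 (11.05, next 11.49) and Col18a1 (12.78, next 13.10). In the same heart, transcripts of at least 8000 bases lay at a median of 0.13 above their mean over WT hearts. The other hearts, WT included, lay at -0.06 to 0.05 on this measure, and the part of transcript length in these values was not tested.

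WT replicate 6 was the lowest WT heart for Emilin1 (11.15, next 11.46), Col18a1 (12.87, next 13.02), and the means over basement membrane collagens (-0.19, next -0.06), elastic fibre genes (-0.19, next -0.03) and adhesive and matricellular glycoproteins (-0.16, next -0.04). WT replicate 10 was lowest for Col6a1 (11.23, next 11.52), WT replicate 3 highest for Eln (14.74, next 14.34), and Dp1Tyb replicate 5 lowest of its group for Col6a1 (11.56, next 11.82).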

How the results depend on the processing

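No paired analysis was possible because the replicate numbers were given in accession order and the labels do not tie hearts to litters. Has2 was called in Dp1Tyb versus WT in 25 of 25 alternatives, with log2 fold changes of 0.18 to 0.20 and adjusted P-values of 9.28e-06 to 0.000919 (limma). With weights per heart, the matrix genes called were 7 in Dp1Tyb versus WT (6 higher, 1 lower), 3 in Dp1TybDyrk1a+/+/- versus WT (all lower) and 18 in Dp1Tyb versus Dp1TybDyrk1a+/+/- (all higher), while the share of all genes called rose to 9.29%, 2.23% and 8.15%. A fit of only the groups compared called 3 in Dp1Tyb versus WT (5.09% of all genes). Without the 2 hearts that stood apart, the counts were 4, 3 and 6. Single hearts of the 2 genotypes compared were also left out. Counts were then 1 to 2 in Dp1Tyb versus WT (2 without Dp1Tyb replicate 5, 2.23% of all genes). They were 0 to 1 in Dp1TybDyrk1a+/+/- versus WT (1 without replicate 2 of that genotype, 0.908%). In the direct comparison they were 0 to 2 (2 without Dp1TybDyrk1a+/+/- replicate 1, 1.97%). Hearts of the genotype outside a comparison share in the estimate of spread but were not left out for these counts. Over all genes, 471 were called in Dp1Tyb versus WT, 1422 with weights, 1178 without the 2 hearts and 959 without Dp1TybDyrk1a+/+/- replicate 2 alone. Those in the direct comparison numbered 178, 1247 with weights, 606 without the 2 hearts and 404 without WT replicate 6 alone. With lane as a covariate they numbered 29, and in a fit of these groups alone 3. The cause of these shifts was not tested. The median log2 fold change of matrix genes kept its sign in all alternatives, at 0.04 to 0.07, -0.07 to -0.01 and 0.04 to 0.11. Of single genes, Has2, Eln, Emilin1, Tnxb, Col1a1, Col1a2, Col6a1, Col14a1, Col15a1, Vcan and Hapln1 were followed, each in the comparisons where its difference was among the largest, and kept their direction in every alternative. Called genes of the collagen processing, receptor and further matrix lists were also followed, in the comparisons where they were called. They kept their direction, though not every call held. The remaining named genes were not followed through the alternatives. Depth is unknown, so what it limits cannot be given.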
